A study of Mus musculus with 30 samples.

Results

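The sestrins Sesn1, Sesn2 and Sesn3, the REDD genes Ddit4 and Ddit4l, and the autophagy effectors Dram1 and Trp53inp1 are stress genes linked to p53 that act on mTOR signalling and on autophagy. These 7 genes were chosen by name from 18194 genes measured on the arrays. For each gene the brightest probe set, by the mean of the 30 arrays, gave the values, and all 15 of their probe sets with a single gene symbol were examined. All 7 passed the filter on dim probe sets, which left 12674 genes to test. In the mouse assembly GRCm38.p6, by RefSeq, Sesn1 lies at chr10:41810574-41908436, Sesn2 at chr4:132492804-132510456, Sesn3 at chr9:14276301-14326134, Ddit4 at chr10:59949675-59951770, Ddit4l at chr3:137623672-137628332, Dram1 at chr10:88322801-88364359 and Trp53inp1 at chr4:11156441-11174379.

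The kinase mTOR, in the complex mTORC1, drives protein synthesis and growth and holds autophagy back when nutrients are plentiful. Sestrins and REDD proteins restrain mTORC1 under stress, sestrins through the GATOR complexes that sense amino acids and through the energy-sensing kinase AMPK, and REDD proteins through the TSC complex, which switches off the small GTPase RHEB. Dram1 is a lysosomal membrane protein and Trp53inp1 a stress protein that binds to p53 regulators and to the LC3 family on autophagosomes, and both have been described as p53-induced promoters of autophagy. In fibroblasts p53 is best known for arrest after DNA damage, with Cdkn1a, the gene of the cell cycle inhibitor p21, as its standard readout.

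All cells were mouse embryonic fibroblasts of the strain C57BL/6 x 129SvJ, taken from embryos at stage E13.5, with both p53 alleles carrying a stop cassette (p53 LSL/LSL) that Cre recombinase removes. In the time course they received the adenovirus AdenoCre or the control AdenoGFP for 24 h and then 500 nM doxorubicin, a drug that breaks DNA, for 1, 3, 6 or 9 h, while the cells at 0 h were untreated. Each virus and time had 1 array, which gives 10 arrays. In both siRNA experiments every group, controls included, carried AdenoCre for 24 h, siRNA for 24 h and 100 nM doxorubicin for 13 h. The lincP21KD experiment held siRNA against p53 (siP53, 3 arrays), against lincRNA-p21 (siLincp21, 3 arrays) or a scrambled sequence (siScramble, 2 arrays). The hnRNPKKD experiment held siP53, siLincp21, siRNA against the RNA-binding protein hnRNP-K (siHnrnpk) and a control siRNA (siControl), with 3 arrays each. The viruses differ in Cre and GFP as well as in p53, so the return of p53 and other effects of the viruses cannot be told apart in the time course. The labels do not say that replicates were separate cultures, so p-values measure only the spread between these arrays.

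Values are log2 signals after RMA, a summary of probe intensities. Array medians were 4.98 to 5.03 in the time course, 5.55 to 5.66 in the lincP21KD experiment and 4.83 to 4.91 in the hnRNPKKD experiment, so levels were compared only within an experiment. Differences are on the log2 scale with the standard error of a limma fit after ±, and adjusted p-values are Benjamini-Hochberg values over all 12674 genes, called below 0.05. All 10 fibroblast markers lay above the limit of the filter, from 7.28 for Lum to 14.5 for Vim, while 1 of 4 endothelial, 2 of 4 epithelial, 4 of 6 macrophage, 4 of 4 neural, 2 of 4 skeletal muscle and 1 of 2 measured adipocyte markers did. The highest of these were Fabp4 at 8.81, Tubb3 at 7.84 and Epcam at 6.97, and their part in the results was not tested. The p53 and lincRNA-p21 transcripts are not analysed here, so the siP53 arrays were judged from Cdkn1a. In siHnrnpk cells Hnrnpk was 8.38, 8.34 and 9.94 against 12.68, 12.03 and 12.47 in siControl cells, a difference of -3.51 ± 0.35 (standard error, adjusted p = 2.12e-05 in limma). As in any bulk sample, fewer cells expressing a gene and less RNA per cell cannot be told apart.

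Promoter windows from RefSeq (GRCm38.p6, 250 bases before to 50 after a transcription start) were found for 6 of the 7 genes, in 7 windows, since Sesn1 has a pair of starts. No window was found for Trp53inp1, so its promoter was not searched. The p53 half-site, the short motif of which p53 response elements hold a pair, was searched on both strands. It was present in the window of Ddit4l, where it begins 90 bases before the start, and in the window of the second Sesn1 start, where it begins 173 bases before it. Among all 32851 windows of 300 bases 8.36% hold this motif, so its presence is a description and no site of binding. With 1 mismatch outside the invariant C and G, 50.9% of all windows hold it, among them 5 of the 7. The amino acid response motif TGATGNAA (3.97% of all windows) was in 0 of the 7. The hypoxia response cores ACGTG (19.6%) and GCGTG (32.4%), which can overlap, were in the Ddit4 window only and in 4 windows, and the TATA box letters TATAAA (13.6%) were in the Ddit4l window only, after the start. The 250 bases before the start are printed for the 2 genes with the half-site, in capitals, and for Sesn2 and Ddit4, which changed with siP53 in both experiments and whose windows do not hold these letters.
Ddit4l, chr3:137623422-137623671, plus strand: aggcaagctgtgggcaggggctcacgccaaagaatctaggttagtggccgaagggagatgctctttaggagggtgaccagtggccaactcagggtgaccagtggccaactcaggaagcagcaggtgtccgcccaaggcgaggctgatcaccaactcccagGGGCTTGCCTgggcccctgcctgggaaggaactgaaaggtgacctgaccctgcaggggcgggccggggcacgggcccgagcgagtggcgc
Sesn1, second start, chr10:41887189-41887438, plus strand: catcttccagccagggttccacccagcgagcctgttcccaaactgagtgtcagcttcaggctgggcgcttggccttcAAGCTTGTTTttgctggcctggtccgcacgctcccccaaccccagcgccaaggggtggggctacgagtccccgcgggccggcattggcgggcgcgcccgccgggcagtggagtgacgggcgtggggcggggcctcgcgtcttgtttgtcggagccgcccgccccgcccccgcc
Sesn2, chr4:132510457-132510706, minus strand: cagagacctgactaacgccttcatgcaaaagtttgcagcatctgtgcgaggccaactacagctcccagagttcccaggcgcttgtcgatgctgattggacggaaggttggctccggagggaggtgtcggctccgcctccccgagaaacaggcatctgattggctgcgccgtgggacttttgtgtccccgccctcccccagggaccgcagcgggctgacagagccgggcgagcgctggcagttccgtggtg
Ddit4, chr10:59951771-59952020, minus strand: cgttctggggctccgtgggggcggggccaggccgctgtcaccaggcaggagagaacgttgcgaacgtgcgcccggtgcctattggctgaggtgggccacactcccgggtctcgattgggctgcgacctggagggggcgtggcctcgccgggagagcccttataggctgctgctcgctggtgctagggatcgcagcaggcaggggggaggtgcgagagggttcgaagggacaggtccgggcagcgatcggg

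The time course asked which of these genes differ between AdenoCre and AdenoGFP cells over the pairs at 0, 1, 3, 6 and 9 h. The pair at 0 h had no doxorubicin. Ddit4l and Trp53inp1 were over 10 times as high in AdenoCre cells, Sesn2 and Ddit4 were higher to a lesser degree, and Sesn1, Sesn3 and Dram1 did not pass the test. In all, 4 of the 7 genes were higher in AdenoCre cells and 0 were lower at an adjusted p below 0.05, beside 12.9% of all tested genes called higher and 6.24% called lower. The median difference of the 7 genes was 0.82 on the log2 scale, against 0.04 for all tested genes.

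**Figure D1:**
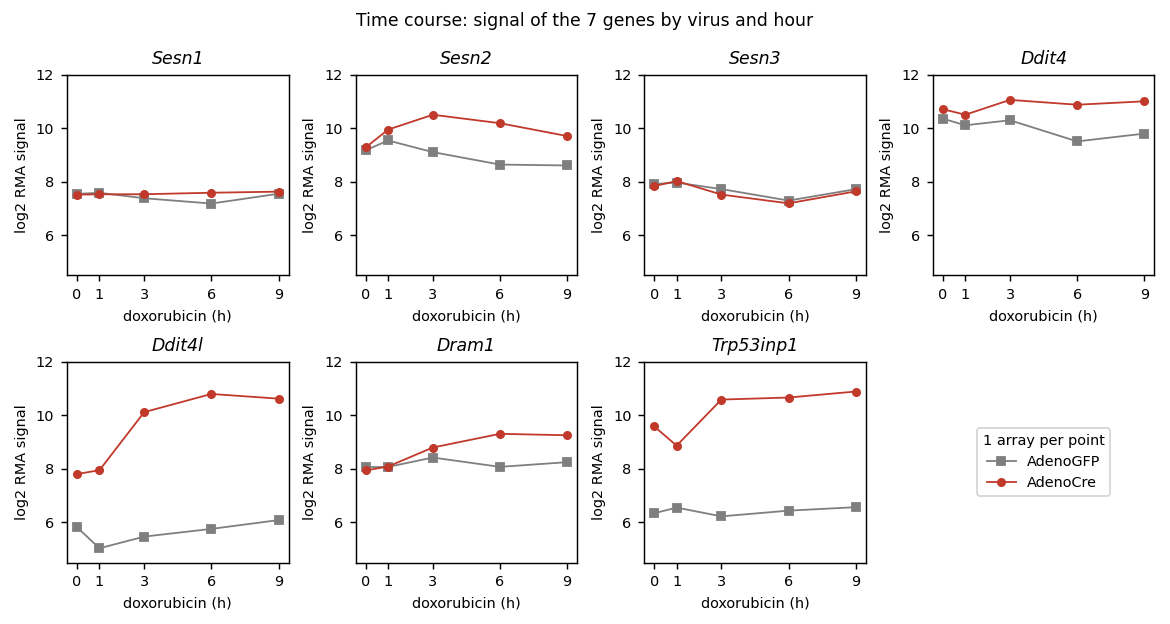
Log2 RMA signal of the 7 genes against hours of doxorubicin, with 1 array per point, in AdenoGFP (grey squares) and AdenoCre cells (red circles). Ddit4l and Trp53inp1 lie apart at every time, Ddit4 lies higher in AdenoCre cells at every time, the gaps of Sesn2 and Dram1 are larger from 3 h on than before, and those of Sesn1 and Sesn3 reach at most 0.40.

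Among the sestrins only Sesn2 passed. In AdenoGFP cells its signal was 9.17, 9.54, 9.10, 8.64 and 8.60 at 0, 1, 3, 6 and 9 h. In AdenoCre cells it was 9.28, 9.94, 10.50, 10.18 and 9.70. The gap widened from 0.11 at 0 h to 1.55 at 6 h, and the groups overlapped across times, because the AdenoGFP array at 1 h lay above the AdenoCre array at 0 h. Over the 5 pairs Sesn2 was 0.91 ± 0.21 higher in AdenoCre cells (1.88-fold, adjusted p = 0.02 in limma). Its call rested on the later pairs: leaving out 3 h gave 0.79 (adjusted p = 0.0707), leaving out 6 h gave 0.752 (0.055) and leaving out 9 h gave 0.864 (0.0634). The other Sesn2 probe set gave 0.87 ± 0.19.

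Sesn1, the first sestrin described as a p53 target, stayed between 7.18 and 7.58 in AdenoGFP cells and between 7.51 and 7.62 in AdenoCre cells. Its difference was 0.11 ± 0.09 (adjusted p = 0.45), with an unadjusted 95% interval from -0.10 to 0.32. The probe sets of Sesn1 disagreed: 1438931_s_at was lower in AdenoCre cells (-0.63 ± 0.12, adjusted p = 0.0156 over all probe sets), and 1454699_at and 1444376_at stood at -0.17 ± 0.10 and -0.06 ± 0.08. The mean of its probe sets was -0.189 and also did not pass, so no direction is given for Sesn1 here. Sesn3, a sestrin controlled by FOXO factors in other cells, ranged from 7.29 to 7.96 in AdenoGFP and from 7.19 to 8.02 in AdenoCre cells. It differed by -0.08 ± 0.08 (adjusted p = 0.509, interval from -0.26 to 0.10), and its other probe set by -0.01 ± 0.10.

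Both REDD genes were higher in AdenoCre cells, Ddit4l by far more than Ddit4. For Ddit4, which encodes REDD1, an mTORC1 inhibitor induced by many stresses, AdenoGFP cells gave 10.35, 10.10, 10.29, 9.50 and 9.79 over the 5 times. AdenoCre cells gave 10.71, 10.50, 11.05, 10.87 and 11.00, so every AdenoCre array lay above every AdenoGFP array. The difference was 0.82 ± 0.16 (1.76-fold, adjusted p = 0.012). It grew from 0.35 and 0.40 at 0 and 1 h to 1.37 and 1.21 at 6 and 9 h.

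For Ddit4l, which encodes the related mTORC1 inhibitor REDD2 and has the half-site printed in capitals, AdenoGFP cells gave 5.82, 5.03, 5.47, 5.76 and 6.09. AdenoCre cells gave 7.81, 7.95, 10.12, 10.80 and 10.62. The groups did not overlap, and the gap was already 1.99 without doxorubicin at 0 h and reached 5.04 at 6 h. Over the pairs the difference was 3.83 ± 0.41 (14.2-fold, adjusted p = 0.00149), and the other probe sets of Ddit4l gave 3.66 ± 0.34 and 4.01 ± 0.41.

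The autophagy effectors differed from each other. Trp53inp1 in AdenoGFP cells was 6.34, 6.55, 6.23, 6.44 and 6.57 at the 5 times. In AdenoCre cells it was 9.59, 8.87, 10.59, 10.67 and 10.89. Every AdenoCre array lay at least 2.32 above its AdenoGFP partner, and the gap at 0 h, before doxorubicin, was 3.24. The mean difference was 3.69 ± 0.29 (12.9-fold, adjusted p = 0.000319), beside 3.85 ± 0.15 for Cdkn1a. The dimmer probe set of Trp53inp1, 1416927_at, gave 1.58 ± 0.28, so the size of this difference depends on the probe set.

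Dram1 in AdenoGFP cells was 8.07, 8.07, 8.42, 8.08 and 8.25, and in AdenoCre cells 7.94, 8.09, 8.80, 9.31 and 9.26. The viruses were alike at 0 and 1 h (-0.13 and 0.02) and lay 1.23 and 1.01 apart at 6 and 9 h, with 1 array each. Over all pairs Dram1 did not pass (0.50 ± 0.20, adjusted p = 0.119, unadjusted interval from 0.04 to 0.96). This standard error includes the change of the gap over time.

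Slopes on hours asked whether the genes changed with time of doxorubicin within each virus. In AdenoCre cells Ddit4l rose by 0.35 ± 0.07 per h (adjusted p = 0.0207), Dram1 by 0.16 ± 0.03 per h (0.0131) and Trp53inp1 by 0.19 ± 0.05 per h (0.0484). These 3 of 7 stand beside 5.4% of all genes with a called slope in AdenoCre cells. Sesn2 did not follow a line: it was highest at 3 h (10.50) and lower again at 9 h (9.70), and its slope was 0.02 ± 0.05 per h. Ddit4 (0.04 ± 0.03), Sesn1 (0.01 ± 0.02) and Sesn3 (-0.05 ± 0.03) did not pass either.

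The slope calls were fragile with 1 array per time. Ddit4l lost its call without 0, 1 or 6 h (0.303, 0.304 and 0.314 per h), and Dram1 without 0 or 1 h (0.143 and 0.149). Trp53inp1 lost it without 0, 1, 6 or 9 h (0.213, 0.133, 0.182 and 0.255), with either other filter on dim probe sets and on log2 hours. In AdenoGFP cells 0 of 7 slopes were called in limma, beside 0.00789% of all genes, and 1 had an unadjusted p below 0.05, that of Ddit4 (-0.07 ± 0.03 per h). The difference of the slopes between the viruses called 0 of 7, beside 0.181% of all genes. There 4 genes had an unadjusted p below 0.05, Dram1 (0.15 ± 0.04 per h), Ddit4 (0.11 ± 0.04), Ddit4l (0.28 ± 0.10) and Trp53inp1 (0.17 ± 0.07). The time courses were therefore not shown to differ between the viruses for any of the 7 genes.

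The siRNA experiments asked, in AdenoCre cells 13 h after doxorubicin, what knockdown of p53, of lincRNA-p21 or of hnRNP-K does to the same genes. With siP53 Sesn2, Ddit4, Ddit4l and Trp53inp1 were lower in both experiments, while Sesn1 was higher in both. The rise of Sesn1 was not particular to siP53 in the hnRNPKKD experiment. There Sesn1 was also higher than siControl with siLincp21 (0.53 ± 0.10) and siHnrnpk (0.85 ± 0.10). For siP53 against siLincp21 it did not pass there (-0.04 ± 0.10). In the lincP21KD experiment 1 of 7 was higher and 4 were lower with siP53, beside 7.01% and 5.74% of all genes. In the hnRNPKKD experiment 2 were higher and 4 lower, beside 19.3% and 19.2% of all genes. The medians of the 7 genes were -0.92 and -1.21, against 0.02 and -0.01 for all genes. Cdkn1a was lower in both (-2.07 ± 0.11 and -2.64 ± 0.18). Its siP53 arrays were uneven in the hnRNPKKD experiment, from 10.52 to 11.41. On its other probe set, 1421679_a_at, they ran from 7.77 to 10.99, against 12.69 to 12.98 with siControl.

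**Figure D2:**
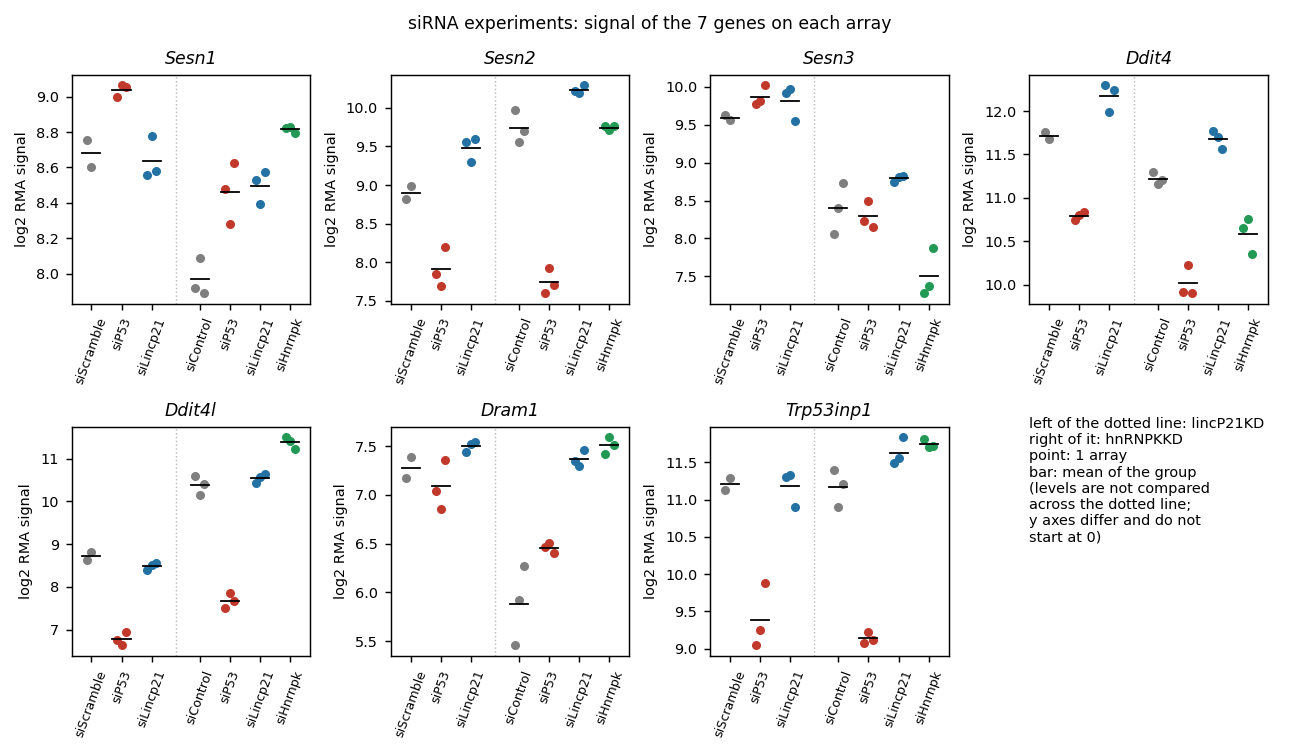
Log2 RMA signal of the 7 genes on each siRNA array (points) with group means (bars), in the lincP21KD experiment left of the dotted line and the hnRNPKKD experiment right of it. The siP53 arrays of Sesn2, Ddit4, Ddit4l and Trp53inp1 lie below all arrays of their controls, and the siControl arrays of Dram1, at 5.46 to 6.27, lie below all other arrays of that experiment.

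For Sesn2 the siP53 arrays of the lincP21KD experiment gave 7.84, 7.69 and 8.20 and the siScramble arrays 8.82 and 8.99. The groups did not overlap, and the difference was -0.99 ± 0.15 (ratio 0.503, adjusted p = 0.00206). Among the hnRNPKKD arrays siP53 gave 7.60, 7.92 and 7.70 against 9.97, 9.56 and 9.70 with siControl, a difference of -2.00 ± 0.12 (ratio 0.249, adjusted p = 1.22e-07). The siP53 difference of Sesn2 was thus larger in the second experiment, by -1.01 ± 0.19 in the test of the 2 differences (adjusted p = 0.0021). Cdkn1a, the readout of p53, stood at -0.57 ± 0.24 in the same test and did not pass (adjusted p = 0.123). Without siP53 replicate 2 of the hnRNPKKD experiment it was -0.847 and passed. How far p53 was reduced in each experiment is not analysed here. The other Sesn2 probe set gave -0.82 ± 0.11 and -1.75 ± 0.09.

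Sesn1 went the other way. With siP53 it was 9.00, 9.07 and 9.06 in the lincP21KD experiment, above the siScramble values of 8.76 and 8.60. The difference of 0.36 ± 0.09 (adjusted p = 0.028) lost its call without any 1 of the 5 arrays compared (0.381, 0.347 and 0.353 without siP53 replicates 1, 2 and 3, and 0.438 and 0.283 without siScramble replicates 1 and 2) and as the mean of its probe sets (0.225). Within the hnRNPKKD experiment siP53 gave 8.48, 8.28 and 8.63 against 7.92, 8.09 and 7.89 with siControl, and the difference was 0.49 ± 0.10 (adjusted p = 0.00212). That call held without any 1 of the 6 arrays. The Sesn1 probe sets 1438931_s_at and 1454699_at gave 0.75 ± 0.23 and 0.46 ± 0.11 there, and the dim 1444376_at, with a mean of 3.47, gave 0.11 ± 0.10. Sesn3 was 9.77, 9.81 and 10.02 with siP53 against 9.63 and 9.56 with siScramble, and 8.24, 8.49 and 8.15 against 8.06, 8.40 and 8.73 with siControl. It did not pass in either experiment (0.28 ± 0.13, adjusted p = 0.214, and -0.10 ± 0.18, adjusted p = 0.686).

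Ddit4 was lower with siP53 in both experiments. The siP53 arrays of the lincP21KD experiment gave 10.74, 10.80 and 10.84 against 11.76 and 11.68 with siScramble, a difference of -0.92 ± 0.10 (adjusted p = 0.000324). Those of the hnRNPKKD experiment gave 9.91, 10.23 and 9.90 against 11.30, 11.16 and 11.21 with siControl, a difference of -1.21 ± 0.12 (adjusted p = 1.06e-05). These siP53 differences of Ddit4 were not shown to differ between the experiments (-0.28 ± 0.17, adjusted p = 0.291).

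Ddit4l showed the largest siP53 difference of the 7 genes in both experiments. It was 6.77, 6.63 and 6.95 with siP53 against 8.63 and 8.80 with siScramble (-1.93 ± 0.11, ratio 0.262, adjusted p = 5.12e-06). In the hnRNPKKD experiment it was 7.51, 7.86 and 7.67 against 10.58, 10.14 and 10.40 with siControl (-2.70 ± 0.13, ratio 0.154, adjusted p = 3.28e-08). The 3 probe sets of Ddit4l ran from -2.06 to -1.69 in the first experiment and from -3.00 to -2.64 in the second. The difference between the experiments was -0.76 ± 0.18 (adjusted p = 0.0086), and without siScramble replicate 1 it was -0.676 and no longer called (adjusted p = 0.0602).

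Trp53inp1 was 9.04, 9.24 and 9.87 with siP53 against 11.12 and 11.28 with siScramble, a difference of -1.82 ± 0.22 (adjusted p = 0.000571). Among the hnRNPKKD arrays it was 9.07, 9.22 and 9.12 against 11.40, 10.90 and 11.21, a difference of -2.03 ± 0.13 (adjusted p = 2.74e-07). No siP53 array reached a control array in either experiment. The dimmer probe set again gave smaller differences, -1.22 ± 0.23 and -0.63 ± 0.15.

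Dram1 was not called lower with siP53 in either experiment. In the lincP21KD experiment it was 7.04, 6.86 and 7.36 against 7.17 and 7.39 with siScramble, and the difference of -0.19 ± 0.13 did not pass (adjusted p = 0.413). Within the hnRNPKKD experiment it was 6.46, 6.51 and 6.41 against 5.46, 5.93 and 6.27 with siControl, and it was called higher (0.57 ± 0.16, adjusted p = 0.0115). This call was lost when only these 2 groups were fitted (0.574, adjusted p = 0.0598). The siControl arrays had the widest spread of Dram1 among the 4 groups, with a standard deviation of 0.41. The siP53 differences of Dram1 differed between the experiments by 0.77 ± 0.23 (adjusted p = 0.0292). That call was lost without siP53 replicate 1 (0.764) or siControl replicate 1 (0.553) of the hnRNPKKD experiment, and without siP53 replicate 1 (0.745), siP53 replicate 2 (0.652) or siScramble replicate 2 (0.657) of the lincP21KD experiment.

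**Figure D3:**
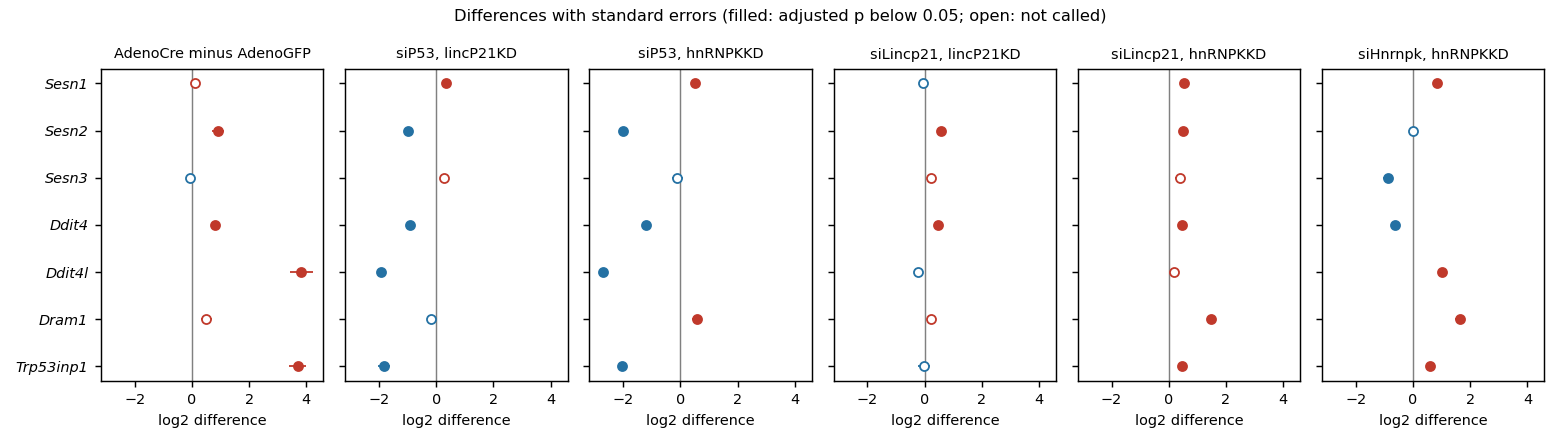
Log2 differences with standard errors of the 7 genes in 6 comparisons, filled where the adjusted p was below 0.05 and open where it was not, red above 0 and blue below. Ddit4l and Trp53inp1 lie farthest right for AdenoCre minus AdenoGFP (3.83 and 3.69) and farthest left for siP53, and Dram1 lies farthest right for siLincp21 and siHnrnpk in the hnRNPKKD experiment (1.48 and 1.62).

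With siLincp21 Sesn2 and Ddit4 were higher than their controls in both experiments, and none of the 7 genes was called lower. How far lincRNA-p21 was reduced is not analysed here. In the lincP21KD experiment 2 of 7 genes were higher and 0 lower, beside 7.47% and 4.39% of all genes. In the hnRNPKKD experiment 5 were higher and 0 lower, beside 17.2% and 11.8%. The medians of the 7 genes were 0.22 and 0.46, against 0.01 in both for all genes. These comparisons share their control arrays with those of siP53.

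Sesn2 was 9.56, 9.29 and 9.60 with siLincp21 in the lincP21KD experiment, above siScramble (8.82 and 8.99) on every array. The difference of 0.58 ± 0.15 (adjusted p = 0.0323) lost its call without siLincp21 replicate 1 or 3 (0.546 and 0.523) or siScramble replicate 1 or 2 (0.495 and 0.669). Among the hnRNPKKD arrays it was 10.21, 10.19 and 10.30, above all siControl arrays (9.56 to 9.97), with a difference of 0.49 ± 0.12 (adjusted p = 0.00648) that held without any 1 array. The other Sesn2 probe set gave 0.37 ± 0.11 and 0.27 ± 0.09 and passed in neither experiment (adjusted p = 0.0757 and 0.0901 over all probe sets).

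Ddit4 was 12.30, 11.99 and 12.25 with siLincp21 against 11.76 and 11.68 with siScramble (0.46 ± 0.10, adjusted p = 0.0163). Its call was lost without siLincp21 replicate 1 (0.398) or siScramble replicate 1 or 2 (0.499 and 0.421). Within the hnRNPKKD experiment Ddit4 was 11.78, 11.70 and 11.57 against 11.16 to 11.30 with siControl, and the difference had the same size (0.46 ± 0.12, adjusted p = 0.0136). That call was lost without siLincp21 replicate 1 (0.415).

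Ddit4l and Trp53inp1, the genes with the largest siP53 differences in the lincP21KD experiment, did not pass with siLincp21 there. Ddit4l was 8.39, 8.52 and 8.57 (-0.23 ± 0.11, adjusted p = 0.214), just below the siScramble arrays at 8.63 and 8.80. Trp53inp1 was 11.30, 11.33 and 10.90 (-0.03 ± 0.22) and overlapped them. In the hnRNPKKD experiment Ddit4l was 10.42, 10.56 and 10.64, at 0.17 ± 0.13 (adjusted p = 0.386, unadjusted interval from -0.12 to 0.45). The probe sets of Ddit4l disagreed there. On 1451751_at the siLincp21 arrays, at 10.53 to 10.79, lay above the siControl arrays, at 9.88 to 10.20. On 1439332_at the group means were 9.94 with siLincp21 and 9.93 with siControl. Trp53inp1 was 11.48, 11.56 and 11.84 against 10.90 to 11.40 there and was called higher (0.46 ± 0.13, adjusted p = 0.0177). It did not pass without siLincp21 replicate 3 (0.352) or siControl replicate 2 (0.323), and its dimmer probe set gave 0.18 ± 0.15. Cdkn1a was at 0.01 ± 0.11 and 0.31 ± 0.18, and neither passed, although the second did when only its 2 groups were fitted (0.315).

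Dram1 with siLincp21 was 7.44, 7.52 and 7.54 in the lincP21KD experiment, with a difference of 0.22 ± 0.13 that did not pass (adjusted p = 0.332). Among the hnRNPKKD arrays it was 7.35, 7.30 and 7.46, more than 1 log2 unit above the highest siControl array, with a difference of 1.48 ± 0.16 (2.79-fold, adjusted p = 2.54e-05). Sesn1 was at -0.04 ± 0.09 (8.56, 8.78 and 8.58) in the first experiment and higher in the second (0.53 ± 0.10, adjusted p = 0.00192), where it was 8.53, 8.39 and 8.57. The siLincp21 differences between the experiments were 1.26 ± 0.23 for Dram1 (adjusted p = 0.00189) and 0.57 ± 0.14 for Sesn1 (adjusted p = 0.0172). The Sesn1 value did not pass without siScramble replicate 1 (0.494) or with its probe sets averaged (0.444). These 2 of 7 stand beside 8.14% of all genes in that test, and the 3 of 7 that differed with siP53 (Sesn2, Ddit4l and Dram1) beside 14.5%. Sesn3 did not pass with siLincp21 in either experiment (0.22 ± 0.13 and 0.40 ± 0.18, adjusted p = 0.328 and 0.118), but in the second it passed without siControl replicate 3 (0.567) and as the mean of its probe sets (0.476).

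With siHnrnpk the 7 genes split differently. Sesn1, Ddit4l, Dram1 and Trp53inp1 were higher and Sesn3 and Ddit4 lower than siControl, so 4 of 7 were higher and 2 lower, beside 14.1% and 12.8% of all genes. These comparisons share the 3 siControl arrays with those of siP53 and siLincp21 in this experiment. Ddit4l was 11.50, 11.40 and 11.23 with siHnrnpk against 10.14 to 10.58 with siControl (1.00 ± 0.13, adjusted p = 0.000132). Dram1 was 7.42, 7.59 and 7.51, a difference of 1.62 ± 0.16 (adjusted p = 1.56e-05). Sesn1 was 8.82, 8.83 and 8.80, the closest replicates of any of the 7 genes in that experiment, a difference of 0.85 ± 0.10 (adjusted p = 7.76e-05). Trp53inp1 was 11.82, 11.71 and 11.72 (0.58 ± 0.13, adjusted p = 0.00492). These 4 groups lay above all siControl arrays. With 3 arrays each this can happen at a small difference, as for Cdkn1a, which did not overlap either at 0.07 ± 0.18. The share of all genes without overlap was not counted.

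Sesn3 was 7.28, 7.37 and 7.88 with siHnrnpk, below all siControl arrays (8.06, 8.40 and 8.73), with a difference of -0.89 ± 0.18 (adjusted p = 0.00275). Its other probe set gave a larger difference (-1.57 ± 0.13). Ddit4 was 10.65, 10.76 and 10.35 (-0.63 ± 0.12, adjusted p = 0.00224), again below all siControl arrays. Sesn2 was 9.76, 9.71 and 9.76 and lay within the siControl range, with a difference of -0.0012 ± 0.12 (adjusted p = 0.995, unadjusted interval from -0.25 to 0.25). Cdkn1a was at 0.07 ± 0.18 and did not pass. The calls with siHnrnpk for the 6 genes held under all 14 alternatives run for each.

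In direct comparisons between siRNAs the control arrays do not enter the difference, but they do enter the standard error, which is shared by all groups of an experiment. In the lincP21KD experiment siP53 against siLincp21 called 6 of the 7 genes, beside 20.4% of all genes, with Sesn1 higher (0.40 ± 0.08) and Sesn2 (-1.57 ± 0.13), Ddit4 (-1.38 ± 0.09), Ddit4l (-1.71 ± 0.10), Trp53inp1 (-1.79 ± 0.19) and Dram1 (-0.41 ± 0.12) lower. The Dram1 call (adjusted p = 0.0341) was lost without siP53 replicate 1 or 2 (-0.393 and -0.3) and without siLincp21 replicate 1, 2 or 3 (-0.444, -0.406 and -0.394). Within the hnRNPKKD experiment the same comparison called 6 of 7, beside 38.8% of all genes. All 6 were lower with siP53, Sesn2 at -2.49 ± 0.12, Ddit4 at -1.67 ± 0.12, Ddit4l at -2.86 ± 0.13, Trp53inp1 at -2.49 ± 0.13, Dram1 at -0.91 ± 0.16 and Sesn3 at -0.50 ± 0.18, while Sesn1 did not pass (-0.04 ± 0.10). The Sesn3 call (adjusted p = 0.0423) was lost without siP53 replicate 1 or 3 (-0.472 and -0.431) and without siLincp21 replicate 1, 2 or 3 (-0.524, -0.493 and -0.486).

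Against siHnrnpk, siP53 called all 7 genes, beside 45.3% of all genes. Sesn3 was higher with siP53 (0.78 ± 0.18), and the other 6 were lower, with Ddit4l at -3.70 ± 0.13, Trp53inp1 at -2.61 ± 0.13, Sesn2 at -2.00 ± 0.12 and Dram1 at -1.05 ± 0.16. Sesn1 was at -0.35 ± 0.10 (adjusted p = 0.0129) and at -0.087 as the mean of its probe sets, which did not pass.

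The order of the group means in the hnRNPKKD experiment differed from gene to gene. Sesn2 and Ddit4 were lowest with siP53 and highest with siLincp21, at 7.74 and 10.23 for Sesn2 and at 10.01 and 11.68 for Ddit4. The siControl and siHnrnpk arrays of Sesn2 overlapped, as did the siControl and siLincp21 arrays of Ddit4l on the probe set used, though not on 1451751_at. Ddit4l and Trp53inp1 were lowest with siP53 and highest with siHnrnpk, and for Trp53inp1 the siLincp21 arrays (11.48 to 11.84) overlapped those of siHnrnpk (11.71 to 11.82). Dram1 and Sesn1 were lowest with siControl, and their siP53 and siLincp21 arrays overlapped for Sesn1 only. Sesn3 was lowest with siHnrnpk, and its siP53 arrays overlapped those of siControl.

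**Figure D4:**
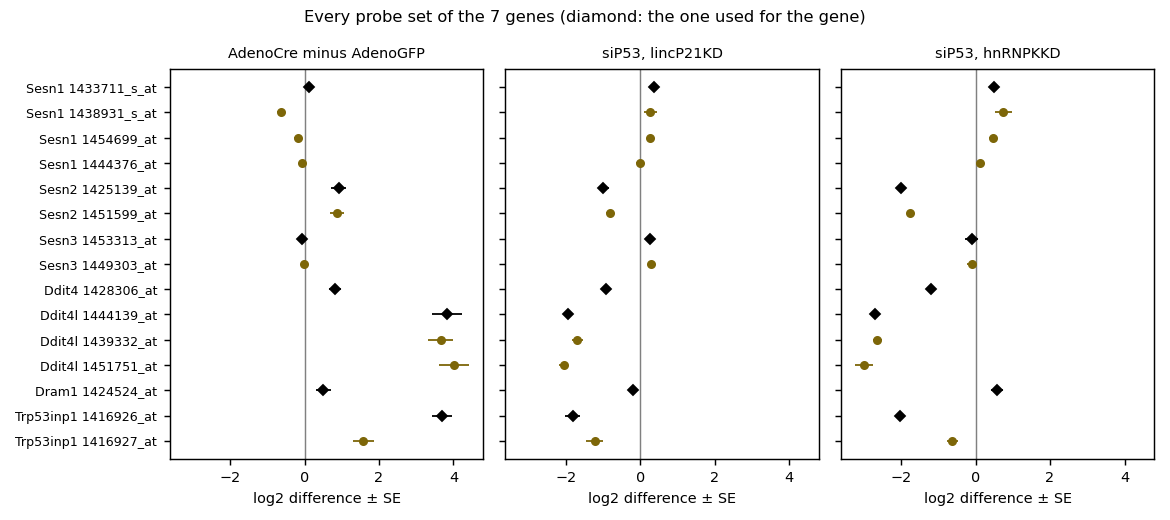
Log2 differences with standard errors of all 15 probe sets of the 7 genes, with the one used for the gene as a black diamond, for AdenoCre minus AdenoGFP and for siP53 in both experiments. The probe sets of Sesn2, Sesn3 and Ddit4l lie close together, the Sesn1 probe set 1438931_s_at lies at -0.63 in the first panel against 0.11 for the one used, and the Trp53inp1 probe set 1416927_at lies nearer to 0 in every panel.

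Likeness of pattern was described by Pearson's r over all 30 arrays after each gene was centred within each experiment; these arrays share treatments, so r carries the group differences and is given with no test. Among the 7 genes the closest pairs were Ddit4l with Trp53inp1 (r = 0.969) and Sesn2 with Ddit4 (r = 0.88). Sesn1 and Sesn2 had r = -0.14, and Sesn3 stayed between -0.314 and 0.248 with the other 6. Over all tested genes Trp53inp1 was most like the receptor gene Eda2r (r = 0.981) and Cdkn1a (0.976). Ddit4l was closest to 9230114K14Rik (0.976) and Trim11 (0.975), and Sesn2 to Apaf1 (0.959), which encodes the scaffold of the apoptosome, and Fndc10 (0.926). Ddit4 was closest to Cpt1c (0.898) and Uckl1 (0.894), and Dram1 to Adamtsl4 (0.917) and Prps2 (0.907). Sesn1 was closest to Radil (0.876) and Lama2 (0.869), and Sesn3 to 2700081O15Rik (0.843) and Cyb5r1 (0.823).

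Other genes of the same pathways were read from lists of their upstream regulators, complexes and effectors. Some genes, such as Ctsd, stand in more than 1 list. In AdenoCre cells 5 of 18 genes of autophagy initiation and nucleation were higher than in AdenoGFP cells and 0 lower, including the initiating kinase Ulk1 (0.79 ± 0.15) and the lipid transfer protein Atg2a (0.52 ± 0.11). Of 17 lysosomal genes 7 were higher and 0 lower, including the proteases Ctsd (0.87 ± 0.11) and Tpp1 (0.55 ± 0.09). Of 19 genes of ATG8 conjugation and cargo receptors 4 were higher, such as Gabarapl2 (0.43 ± 0.09), and 1 lower, the mitophagy receptor Bnip3 (-0.53 ± 0.10). Of all tested genes 12.9% were called higher and 6.24% lower in this comparison. The medians of these 3 lists were 0.27, 0.26 and 0.18, against 0.04 for all genes.

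On the mTOR side, of 9 genes of the mTOR complexes 1 was higher, Prr5l (0.46 ± 0.11), of 8 outputs of mTORC1 0 passed in limma, and of 22 GATOR, RAG and lysosomal sensing genes 3 were higher, among them the arginine sensor Castor1 (0.66 ± 0.11). Of 13 TSC, RHEB and AMPK genes 2 were higher, the AMPK catalytic subunit Prkaa2 (1.29 ± 0.34) and Tsc2 (0.33 ± 0.09). Between the viruses 12.9% of all tested genes were called higher and 6.24% lower. The shares called higher in the mTOR complex, sensing and TSC lists lie near that of all genes. Of 20 further genes of AMPK, mTOR and autophagy that are linked to p53, 6 were higher and 1 lower. They included the death-associated kinase Dapk1 (2.04 ± 0.29), the exonuclease Aen (1.12 ± 0.12) and, as the lower one, the growth factor binding protein Igfbp3 (-1.45 ± 0.09).

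With siP53 in the lincP21KD experiment 0 of 13 TSC, RHEB and AMPK genes passed in limma, and 0 of 18 initiation genes were higher and 2 lower, beside 7.01% higher and 5.74% lower of all genes. The hnRNPKKD experiment, where 19.3% and 19.2% of all genes were called, had 4 higher and 4 lower of the 18 initiation genes and 5 higher and 8 lower of the 20 further p53-linked genes. Prkaa2 was at -0.82 ± 0.24 (adjusted p = 0.0515) in the first and lower in the second (-1.85 ± 0.12), and these differences differed as well (-1.03 ± 0.28, adjusted p = 0.0187). Aen (-0.77 ± 0.11 and -1.63 ± 0.15), Dapk1 (-0.78 ± 0.08 and -3.23 ± 0.24) and Gabarapl2 (-0.36 ± 0.10 and -1.09 ± 0.29) were lower in both. Ulk1 was at -0.08 ± 0.07 in the first and lower in the second (-0.51 ± 0.09), and these siP53 differences differed between the experiments (-0.43 ± 0.11, adjusted p = 0.0167). Igfbp3 was higher in both (1.15 ± 0.17 and 1.52 ± 0.17).

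With siLincp21 the lysosomal list had 6 higher and 1 lower of 17 in the lincP21KD experiment and 7 higher and 2 lower in the hnRNPKKD experiment, beside 7.47% and 4.39% of all genes in the first and 17.2% and 11.8% in the second. The initiating kinase Ulk2 was higher in both (0.41 ± 0.07 and 1.22 ± 0.11). The TORC2-binding protein gene Prr5l was higher with every siRNA against its control, by 0.78 and 1.67 with siP53, 0.81 and 1.49 with siLincp21 and 0.81 with siHnrnpk. With siHnrnpk 5 of 18 initiation genes were higher, such as Atg14 (0.72 ± 0.11), and 3 lower, such as Vmp1 (-0.52 ± 0.09), and 0 of 13 TSC, RHEB and AMPK genes passed in limma, beside 14.1% higher and 12.8% lower of all genes.

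**Figure D5:**
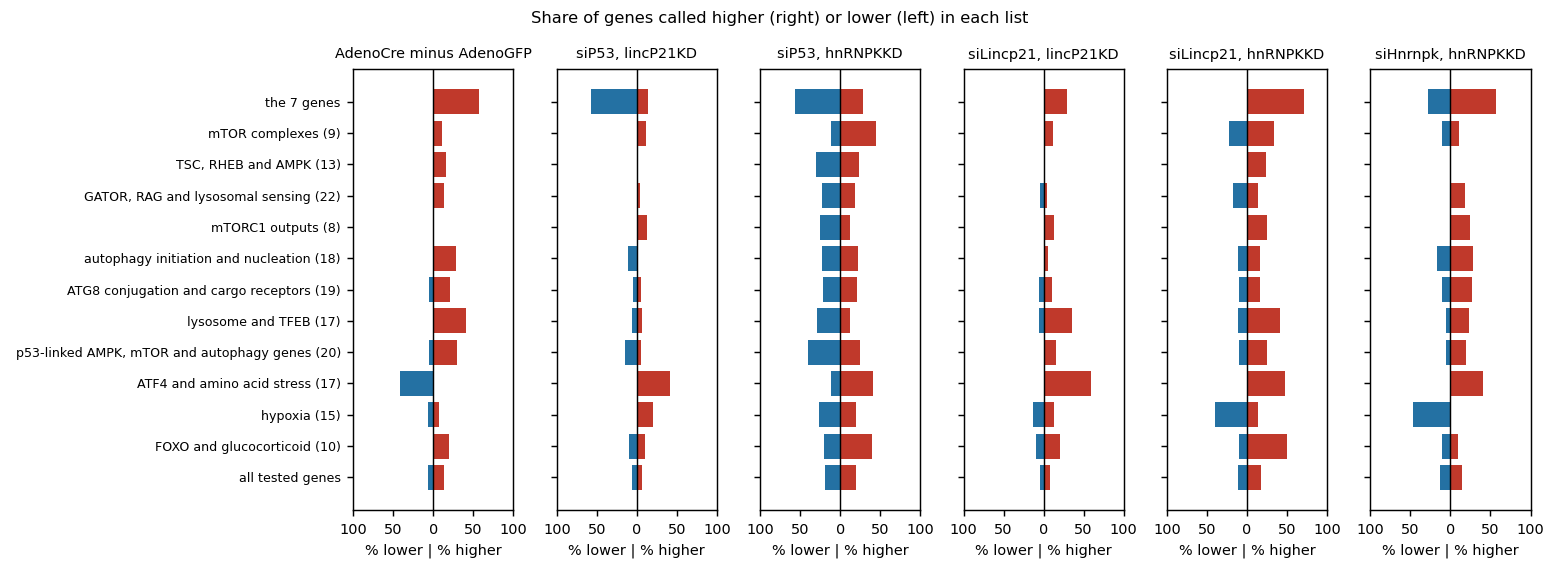
Percent of the genes of each list called higher (red, right) or lower (blue, left) in 6 comparisons, with the number tested in brackets; the 7 genes are the first row and all tested genes the last. The 7 genes reach 4 of 7 higher for AdenoCre minus AdenoGFP and 4 of 7 lower for siP53 in both experiments, and the share of all genes called differs between the comparisons.

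Of the family relatives, Trp53inp2, the paralogue of Trp53inp1, was higher in AdenoCre cells by 0.35 ± 0.08, beside 3.69 ± 0.29 for Trp53inp1, and did not pass with siP53 (-0.26 ± 0.08, adjusted p = 0.0518, and -0.05 ± 0.12). With siHnrnpk Trp53inp2 was lower (-0.52 ± 0.12) and Trp53inp1 higher (0.58 ± 0.13). Dram2, the paralogue of Dram1, passed in 1 of these 6 comparisons, with siLincp21 in the hnRNPKKD experiment (0.49 ± 0.11, beside 1.48 ± 0.16 for Dram1). Differences between paralogues were not tested.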

How the data were processed

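The authors measured RNA on Affymetrix arrays and deposited log2 RMA signal, per the submitters' processing notes; which version was used is not stated there. Values were used without further scaling. Of 45101 probe sets, 34958 had 1 gene symbol, 932 several and 9211 none, and 34754 were updated to GRCm38.p6 symbols. The lowest 40% of probe sets by mean (log2 below 4.544) were left out of the tests. Models were fitted in limma 3.58.1 (R 4.3.3) with eBayes, per experiment, with time as a block for the virus effect and adjustment by Benjamini-Hochberg over 12674 genes. Errors beside ± are standard errors of the fit unless named otherwise, and precision is limited by the number of arrays.

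The 7 genes and the pathway lists were chosen with earlier results of these data known. By the naming rule, the text prints all 7 genes, Cdkn1a and Hnrnpk, called list genes with the smallest adjusted p (up to 3 for the viruses and 2 per siRNA comparison) and the 2 closest genes by correlation. Lists are described by counts and medians, with no set test. Other probe sets were fitted and adjusted over all 45101 probe sets, with no filter on dim ones. Replicate numbers were checked for pairing by the correlation of deviations from group means: only siHnrnpk and siControl had all 3 pairs over 0.1 (0.216, 0.166 and 0.209), a hint from the data and not the design. Some single pairs of the hnRNPKKD experiment were higher. For replicates 1, 2 and 3 siLincp21 and siP53 gave -0.033, 0.631 and 0.694, and siControl and siP53 gave 0.357, 0.359 and -0.186. No 2 arrays held identical values. The RAS experiment is not used here.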

Additional observations from a re-analysis of the deposited data

Results flagged for a closer look

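The siP53 and siLincp21 effects of some genes differed between the hnRNPKKD and lincP21KD experiments, by the contrast of the 2 effects in a joint limma fit, each against its own control. For siP53 the difference was -1.012 ± 0.195 for Sesn2 (adjusted p = 0.0021), -0.763 ± 0.182 for Ddit4l (adjusted p = 0.0086) and 0.767 ± 0.226 for Dram1 (adjusted p = 0.0292). For siLincp21 it was 1.26 ± 0.226 for Dram1 (adjusted p = 0.00189) and 0.571 ± 0.141 for Sesn1 (adjusted p = 0.0172). Both Dram1 values use the siControl arrays, on which Dram1 was 5.46, 5.93 and 6.27. For siP53 Cdkn1a differed by -0.567 ± 0.238 in the same fit and did not pass (adjusted p = 0.123). The part of knockdown depth, or of the unlike array medians of the experiments, in these differences was not tested.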

How the results depend on the processing

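Other scalings, filters, variance models and probe set choices, the replicate block and left-out arrays were run for each comparison. Counts of called genes among the 7 moved by over 1.5 times only as follows. Left-out times took the slope count in AdenoCre cells from 3 to between 0 and 3. Left-out arrays took the siLincp21 count in the lincP21KD experiment from 2 to between 0 and 2. They took the siLincp21 count between experiments from 2 to between 1 and 2, and the mean of probe sets gave 1 there. No call of the 7 genes changed under the replicate block.

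Signs turned only for values that had not passed the test. With the mean of probe sets Sesn1 was at -0.189 between the viruses and at 0.067 for siP53 against siLincp21 in the hnRNPKKD experiment, Sesn3 at -0.013 for that contrast in the lincP21KD experiment, and Trp53inp1 at 0 per h in AdenoGFP cells and at 0.188 for siP53 between experiments. Scaling moved Sesn2 with siHnrnpk to 0.021 (arrays centred) and 0.012 (quantile). The replicate block moved Cdkn1a with siLincp21 in the lincP21KD experiment to -0.021 and Sesn2 with siLincp21 between experiments to 0.01. Left-out times gave ranges from -0.046 to 0.132 per h for Sesn2 in AdenoCre cells, from -0.002 to 0.03 for Trp53inp1 in AdenoGFP cells and from -0.017 to 0.003 for the Sesn3 slope difference. Left-out arrays gave, with siLincp21 in the lincP21KD experiment, -0.119 to 0.036 for Sesn1, -0.108 to 0.11 for Trp53inp1 and -0.092 to 0.105 for Cdkn1a. For siP53 against siLincp21 they gave -0.078 to 0.137 for Sesn3 (lincP21KD) and -0.118 to 0.055 for Sesn1 (hnRNPKKD). Against siControl they gave -0.273 to 0.066 for Sesn3 with siP53 and -0.096 to 0.114 for Sesn2 with siHnrnpk. Between experiments they gave -0.39 to 0.026 for Trp53inp1 with siP53, and -0.187 to 0.023 for Sesn2 and -0.095 to 0.063 for Ddit4 with siLincp21. The causes were not tested. With 1 array per virus and time, and 2 siScramble arrays, the slopes and the lincP21KD calls are the least certain.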

Other observations

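Lists that hold other known inducers of sestrin and REDD genes were read in the same comparisons. Their part in the differences of the 7 genes was not tested. Of 17 genes of ATF4 and amino acid stress, 7 were lower and 0 higher in AdenoCre than in AdenoGFP cells, with the pseudokinase Trib3 at -1.04 ± 0.15, beside 6.24% lower and 12.9% higher of all tested genes. With siRNA the same list had 7 higher and 0 lower with siP53 and 10 higher and 0 lower with siLincp21 in the lincP21KD experiment, where 7.01% and 7.47% of all genes were higher. In the hnRNPKKD experiment 7 were higher and 2 lower with siP53, 8 higher with siLincp21 and 7 higher with siHnrnpk, where 19.3%, 17.2% and 14.1% of all genes were higher. Trib3 was higher in all 5 siRNA comparisons, from 0.71 ± 0.17 with siHnrnpk to 1.47 ± 0.17 with siLincp21. Sesn2 and Ddit4, which ATF4 is known to activate in other cells, were higher in AdenoCre cells and with siLincp21 and lower with siP53. With siHnrnpk Sesn2 did not pass (-0.0012 ± 0.12) and Ddit4 was lower (-0.63 ± 0.12).

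Of 15 hypoxia genes 1 was higher and 1 lower in AdenoCre cells, beside 12.9% and 6.24% of all genes. With siHnrnpk 7 hypoxia genes were lower and 0 higher, beside 12.8% and 14.1% of all genes. The lower ones included the prolyl hydroxylase Egln3 (-1.20 ± 0.16) and Ankrd37 (-0.71 ± 0.12). With siLincp21 in the hnRNPKKD experiment 6 hypoxia genes were lower and 2 higher, beside 11.8% and 17.2% of all genes. Ddit4, a known hypoxia gene, was lower with siHnrnpk (-0.63 ± 0.12) and higher with siLincp21 (0.46 ± 0.12) in that experiment. With siP53 3 hypoxia genes were higher and 0 lower in the lincP21KD experiment, beside 7.01% and 5.74% of all genes. In the hnRNPKKD experiment siP53 gave 3 higher and 4 lower, beside 19.3% and 19.2%, and Ddit4 was lower in both. With siLincp21 in the lincP21KD experiment 2 were higher and 2 lower, beside 7.47% and 4.39%, and Ddit4 was higher. Of 10 FOXO and glucocorticoid genes 2 were higher in AdenoCre cells, Foxo3 (1.02 ± 0.13) and Irs2 (0.50 ± 0.12), beside 12.9% of all genes. Foxo3 was lower with siP53 in both experiments (-0.59 ± 0.08 and -0.87 ± 0.14). Sesn3 did not pass in these 3 comparisons, and a link between Foxo3 and Sesn3 was not tested.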
